A study of Mus musculus with 6 samples.

Results

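The CLK and SR protein kinases are a group of nuclear and cytoplasmic enzymes that phosphorylate proteins of the splicing machinery. The 9 genes Clk1, Clk2, Clk3, Clk4, Srpk1, Srpk2, Srpk3, Dyrk1a and Prpf4b were looked up by name among the 22487 genes of the deposited table, and 8 of the 9 have a row. Each of the 8 names occurs in a single row, so the rule for repeated names, under which a row is chosen by its summed count over all 6 libraries, had no choice to make. No row carries the name Clk2, and Clk2 is not analysed here. The summed counts over all libraries ran from 327 for Srpk3 to 104576 for Clk1.

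RNA sequencing was done on the ovaries of adult female rats in 2 groups of 3 libraries, all labelled wild type. The control rats had no treatment, and the others were exposed to cowshed PM2.5, the fine particles of barn air. Every title carries 30 days without saying what is counted, and the labels give no dose, route or age in weeks. Rat is the species in the titles and in the gene identifiers, although the organism label reads mouse. Whether each library is a different rat is not stated, and all p-values refer to the spread between these samples, which may be technical.

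SR proteins bind exons and recruit the spliceosome, and their arginine-serine tails work only when phosphorylated in the right amount. The SRPK kinases phosphorylate these tails in the cytoplasm, which lets the proteins enter the nucleus and gather in speckles, and the CLK kinases add further phosphates in the nucleus and release them to the sites of transcription. PRP4 kinase, the product of Prpf4b, acts within the spliceosome itself, and DYRK1A phosphorylates splicing factors along with regulators of the cell cycle and of NFAT. The Clk1 and Clk4 genes are also known for controlling the splicing of their own transcripts, some forms of which keep introns or skip an exon and do not give active kinase. In the mouse ovary the SR protein SRSF3 is known to be required for the maturation of the oocyte.

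Clk1 was the kinase transcript that passed the test between the groups. Its level fell about 2.64-fold in the ovaries of exposed rats, with very little spread among the libraries of either group. Its closest relative Clk4 lay lower by a smaller margin that did not pass the test, and Clk3, Srpk1, Srpk2, Dyrk1a and Prpf4b lay within a log2 fold change of -0.32 to 0.19. The kinases tested numbered 7, of which 1 was called lower and 0 higher (edgeR quasi-likelihood, Benjamini-Hochberg threshold 0.05 over all genes). The background in this comparison was 0.928% of 15303 tested genes called in either direction, with 0.738% of tested genes called lower in PM2.5 and 0.19% higher. Srpk3 had a mean of 0.42 FPKM over the libraries, under the minimum of 0.5 FPKM, and was not tested.

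The 8 kinases were expressed at very different levels, given here as FPKM, a unit scaled for gene length so that genes can be compared. In the controls Clk1 stood at 269 ± 13.3 FPKM (mean ± SD, n = 3), which placed it at rank 153 of all 22487 genes. Clk4 followed at 50.2 ± 5.23 FPKM and Prpf4b at 45.4 ± 1.70 FPKM, and the libraries of these 2 genes overlapped. Srpk1 had 29.7 ± 4.03 FPKM, Clk3 19.9 ± 2.67 FPKM and Srpk2 15.5 ± 2.62 FPKM. Of these neighbours Clk3 and Srpk2 overlapped, and Srpk1 and Clk3 did not. Dyrk1a had 11.6 ± 0.283 FPKM, and Srpk3, the isoform known from muscle, had 0.180 ± 0.0788 FPKM.

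In the PM2.5 libraries the order was the same except that Prpf4b at 42.9 ± 2.96 FPKM lay above Clk4 at 31.3 ± 3.68 FPKM, without overlap. Clk1 remained the highest at 102 ± 1.00 FPKM, and Clk3 and Srpk2 at 16.5 ± 1.04 and 16.4 ± 0.642 FPKM again overlapped.

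**Figure D1:**
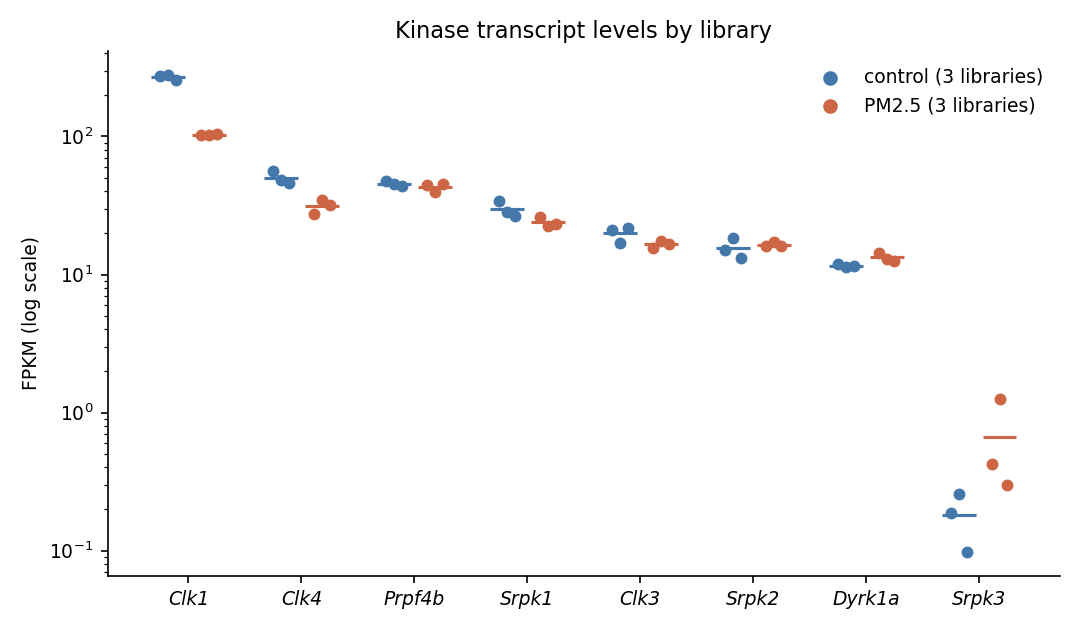
FPKM (log scale) of the 8 kinases in each library, ordered by their control mean, with controls in blue and PM2.5 libraries in orange; points are single libraries and horizontal bars are group means. Clk1 sits near 269 FPKM in controls and near 102 FPKM in PM2.5, while the points of Prpf4b, Clk3 and Srpk2 overlap between the groups.

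Clk1 encodes CDC-like kinase 1, a dual-specificity kinase of the nucleus. The gene (ENSRNOG00000025768, protein coding, 2 annotated transcripts) lies on chromosome 9 from 59947764 to 59957000 on the minus strand, as the table lists it for a build that the sources used here do not name. Levels of single libraries are given as CPM (counts relative to TMM-scaled library totals), in the order of libraries 1 to 3 of each group. Clk1 had 505, 499 and 489.9 CPM in the controls. In the PM2.5 libraries it had 187, 188 and 190.4 CPM. The lowest control was thus far above the highest PM2.5 library, and the libraries within a group hardly differed. On the log2 scale the change was -1.40 ± 0.13 (SE; edgeR quasi-likelihood adjusted p = 0.0434), and Clk1 had the second smallest p-value, rank 2 of 15303 genes. Leaving out any single library kept the log2 fold change between -1.41 and -1.39 but ended the call. The adjusted p was 0.1005 without control 1, 0.0607 without control 2 and 0.0909 without control 3, and it was 0.0831, 0.230 and 0.0738 with the first, second and last PM2.5 library omitted in turn. In bulk tissue, fewer cells that express Clk1 and less Clk1 RNA per cell cannot be told apart.

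The small spread of Clk1 was itself at the edge of the data. The larger of its group coefficients of variation was 1.53% in scaled CPM, where the median over genes of all levels was 26.3%. Among 14988 tested genes with a count in every library, 0 had a smaller value. A small spread also lowers a p-value, and Clk1 was chosen with results known, so this place is a description only. In the deposited FPKM, which are scaled by another library factor, that larger coefficient was 4.95% and 116 genes had a smaller one. Clk1 was also among the abundant transcripts. Of 496 tested genes that reached 100 FPKM on average in the controls, 10 were called, 8 lower and 2 higher, and 25 had a fold change at or below that of Clk1.

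Clk4 encodes the CLK kinase most like CLK1, and reads from stretches the genes share could be assigned to either. It lies on chromosome 10 from 35524755 to 35541352 and has 2 annotated transcripts. Clk4 had 160.4, 134 and 137 CPM in the controls and, after exposure, 78.2, 99.3 and 90.5 CPM. Every PM2.5 library lay below every control, with the lowest value in PM2.5 library 1. With a log2 fold change of -0.69 ± 0.15, or 1.61-fold, Clk4 did not pass (edgeR quasi-likelihood adjusted p = 0.0884). DESeq2 gave an adjusted p of 0.00455, and over all alternatives it ran from 0.00455 to 0.275.

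Clk3, which encodes a kinase of the same family known for its abundance in the testis, lies on chromosome 8 from 58152155 to 58168181. It had 158, 122 and 170.4 CPM in the controls and, after exposure, 116, 132 and 124 CPM. Control 2 lay within the range of the PM2.5 libraries, so the groups overlapped. For Clk3 the log2 fold change was -0.28 ± 0.16 (edgeR quasi-likelihood adjusted p = 0.372).

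Srpk1 and Srpk2 differed less between the groups than Clk1 and Clk4. Srpk1, the widely expressed SRPK, lies on chromosome 20 from 6645809 to 6682134. Its level was 166, 134 and 134 CPM in the controls and, after exposure, 126, 109.6 and 112 CPM. The groups did not overlap, but the gap between control 3 and PM2.5 library 1 was smaller than the spread among the controls. The log2 fold change of Srpk1 was -0.32 ± 0.15 (edgeR quasi-likelihood adjusted p = 0.270).

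Srpk2, on chromosome 4 from 11464674 to 11655990, encodes the SRPK known best from the nervous system. It had 71.0, 82.9 and 64.2 CPM in the controls and, after exposure, 75.4, 80.7 and 75.2 CPM, which all fell within the range of the controls. This gave a log2 fold change of 0.08 ± 0.14 (edgeR quasi-likelihood adjusted p = 0.765).

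Srpk3, a kinase of skeletal and heart muscle, lies on chromosome X from 151510539 to 151515198. It was at a very low level, with 21, 30 and 12 counts in controls 1 to 3 and 51, 178 and 35 counts in PM2.5 libraries 1 to 3. In scaled units it had 0.439, 0.587 and 0.242 CPM in the controls and, after exposure, 0.973, 2.93 and 0.705 CPM. The groups did not overlap, and PM2.5 library 2 stood far above the other two of its group. Where other filters let it into the test, the log2 fold change was 1.86 ± 0.73 with edgeR's own filter (edgeR quasi-likelihood adjusted p = 0.238) and 1.87 ± 0.74 without a filter (adjusted p = 0.280). The 6 smooth muscle markers Myh11, Acta2, Cnn1, Des, Tagln and Actg2 summed to 477 to 1007 CPM in the controls and to 2052, 3796 and 758 CPM in PM2.5 libraries 1 to 3, with the highest sum in the library highest in Srpk3. The 7 striated muscle markers found summed to 8.18 to 15.4 CPM in the controls and 22.1, 26.1 and 7.03 CPM after exposure. PM2.5 library 2 had the highest sum in 5 of the 12 marker lists for cell types, which besides both muscle lists were those of adipocytes, oviduct epithelium and surface epithelium. For the oviduct list, with 3 of its 5 genes found, the margin was small, at 32.8 CPM beside 29.8 CPM in control 2. The part of these cell types in the Srpk3 values was not tested.

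Dyrk1a, a kinase of the nucleus whose dosage matters in brain development, lies on chromosome 11 from 33890490 to 34009420. It had 84.2, 77.5 and 84.4 CPM in the controls and, after exposure, 101, 91.4 and 87.8 CPM. Every PM2.5 library lay above every control by a small margin. For Dyrk1a the log2 fold change was 0.19 ± 0.12 (edgeR quasi-likelihood adjusted p = 0.421).

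Prpf4b, on chromosome 17 from 29985343 to 30019625, encodes the kinase that phosphorylates proteins of the U4/U6.U5 particle, which joins the spliceosome before it is activated. It had 218, 200.2 and 210.5 CPM in the controls and, after exposure, 203, 182 and 206 CPM, and the groups overlapped. Its log2 fold change was -0.09 ± 0.13 (edgeR quasi-likelihood adjusted p = 0.738).

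**Figure D2:**
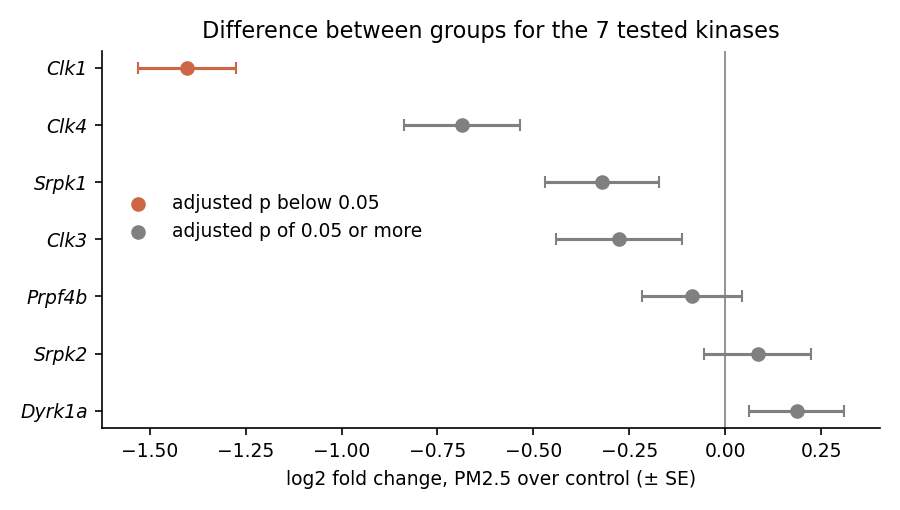
Log2 fold change of the 7 tested kinases, PM2.5 over control, as points with bars of 1 SE from edgeR's quasi-likelihood fit. Clk1 at -1.40 (orange) passed the test at 0.05, and the others (grey) run from -0.69 for Clk4 to 0.19 for Dyrk1a.

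Across the 7 tested kinases the groups did not overlap in 4, with Clk1, Clk4 and Srpk1 lower and Dyrk1a higher. Over all tested genes 27.2% had groups that did not overlap, 15.2% lower and 12.1% higher. The median log2 fold change of the 7 was -0.28, beside 0.00 over all tested genes, with 5 below the controls and 2 above. These counts describe genes that were chosen with results known.

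The balance among the kinases shifted with Clk1. Clk1 made up 60.99% ± 1.44 of the summed FPKM of the 8 kinases in the controls (SD, n = 3) and 41.4% ± 0.271 in the PM2.5 libraries. The share of Clk4 was 11.3% ± 0.765 and 12.7% ± 1.44. The sum of all 8 went from 442 ± 21.8 to 247 ± 1.44 FPKM, and without Clk1 it went from 172 ± 11.9 to 145 ± 0.943 FPKM.

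Ratios between kinases within a library do not depend on how libraries are scaled. The FPKM of Clk1 divided by that of Clk4 was 4.88, 5.79 and 5.54 in controls 1 to 3 and 3.71, 2.93 and 3.26 after exposure. The 3 exposed libraries all lay under the 3 controls, and the mean log2 difference was -0.71. Relative to Clk3, Clk1 stood at 13.8 ± 2.58 in the controls and 6.20 ± 0.394 in PM2.5, and Clk4 at 2.55 ± 0.395 and 1.89 ± 0.107, again without overlap. The Srpk1 to Srpk2 ratio was 1.94 ± 0.357 and 1.45 ± 0.149, and its groups overlapped. The exact two-sided permutation p was 0.1 for the 3 ratios without overlap, which is the smallest that 3 against 3 libraries allow, and 0.2 for Srpk1 to Srpk2, with adjusted values of 0.133 and 0.2 over the 4 pairs. The pairs with Clk3 were chosen after the data were seen, in place of pairs planned with Clk2.

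The deposited columns hold no information on transcript forms. For the 7 kinases with at least 500 counts in every library, count divided by FPKM, after a factor per library, was the same in all libraries to within 0.0506%, so each gene was given a single length. Forms of Clk1 or Clk4 that keep an intron or skip an exon were therefore counted, if at all, together with the coding form.

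The genes whose profile over the 6 libraries was most like that of Clk1 were Utp23, Eef1akmt4, Zfp111, Gramd1b and Zbtb9, out of 12931 named genes that averaged 1 FPKM or more. The measure was the root-mean-square difference of centred log2 CPM, and it was 0.06 for Utp23, which encodes a factor of ribosomal subunit assembly, and 0.10 for Eef1akmt4, which encodes a methyltransferase of a translation factor. It was 0.10 for the zinc finger gene Zfp111 and 0.11 for Gramd1b, which encodes a carrier of cholesterol between membranes, and for Zbtb9. Utp23, for example, had 12.1, 13.6 and 13.3 CPM in the controls and, after exposure, 4.88, 4.71 and 5.02 CPM. Gramd1b had 373, 339 and 388 CPM and then 164, 149 and 150 CPM. The likeness is a description over libraries that fall into 2 groups.

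The substrates of these kinases did not pass edgeR's test. Of 13 SR protein genes 0 were called, 7 lay below the controls and 6 above, and the median log2 fold change was -0.07. At an unadjusted p below 0.05 there were 5, where 20.9% of all tested genes passed, and these 5 also had groups that did not overlap, all lower, where 15.2% of all tested genes did not overlap and were lower. Tra2a, which encodes a splicing activator rich in serine and arginine, came closest. It had 328, 441 and 305 CPM in the controls and, after exposure, 119, 156 and 173 CPM, so that the highest PM2.5 library lay well below the lowest control. Its log2 fold change was -1.26 ± 0.22 (edgeR quasi-likelihood adjusted p = 0.0557). DESeq2 gave Tra2a an adjusted p of 1.75e-05, and over all alternatives it ran from 1.75e-05 to 0.249.

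The other SR protein genes named by the smallest p were much closer to the controls. Srsf6, an SR protein of broad action, had 580, 564 and 560 CPM in the controls and, after exposure, 379, 407 and 472 CPM. Its log2 fold change was -0.44 ± 0.15, that of Srsf7, which also has a role in RNA export, was -0.45 ± 0.15, and that of Srsf2, a speckle protein, was -0.38 ± 0.15. For these 3 genes edgeR gave adjusted p-values of 0.173 to 0.210. DESeq2 called Srsf6 (adjusted p = 0.0485) and did not call Srsf7 or Srsf2 (adjusted p = 0.0863 and 0.115). Tra2b, the paralog of Tra2a, had a log2 fold change of 0.30, and Srsf1 and Srsf5 had 0.06 and -0.07. Srsf3 lay lower at -0.43, with groups that did not overlap (edgeR quasi-likelihood adjusted p = 0.231). Srsf10 and Srsf12 lay higher at 0.52 and 0.66, and the groups of both overlapped. Srsf11, Srsf4 and Srsf9 had 0.17, 0.03 and -0.08. The SR protein genes beyond the 4 with the smallest p are named after their values were seen.

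SR-related nuclear proteins carry similar tails, and 0 of 19 tested genes were called, with a median log2 fold change of 0.10, 8 below and 11 above. Acin1, a component of a complex laid down on spliced exons, had a log2 fold change of -0.56 ± 0.17, and U2af2, which recognises the end of introns, had -0.36 ± 0.13. Thrap3 at 0.39 ± 0.14 and Sfswap at 0.44 ± 0.19 lay on the other side. The edgeR adjusted p-values ran from 0.144 for Acin1 to 0.257 for Sfswap.

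Of 14 tested proteins of the U4/U6.U5 particle, on which PRP4 kinase acts, 0 were called and the median was 0.09. Their genes summed to 1048 to 1153 CPM in the controls and 1187 to 1427 CPM in PM2.5, without overlap. Of single tested genes 12.1% did not overlap and were higher. Prpf8, the core protein of the spliceosome, had 229, 235 and 236 CPM in the controls and, after exposure, 295, 384 and 372 CPM. It lay higher in every PM2.5 library, with a log2 fold change of 0.59 ± 0.15 (edgeR quasi-likelihood adjusted p = 0.118). Snrnp200, the helicase that unwinds the U4 and U6 RNAs, had 0.50 ± 0.16, Usp39 had 0.27 ± 0.13 and Sart1 had 0.25 ± 0.16.

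Among 10 tested kinases related to the CLK and DYRK families 0 were called, and the median was -0.12. Dyrk3, a kinase that dissolves speckles during cell division, had 27.9 CPM in control 2 and between 0.745 and 4.56 CPM in the other 5 libraries. Its log2 fold change was -2.12 ± 0.99, and without control 2 it was -0.53. Dyrk2 had -0.42 ± 0.20, and the transcriptional kinases Cdk12 and Cdk13 had -0.29 ± 0.14 and 0.28 ± 0.14.

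Of 7 tested genes for partners and substrates of DYRK1A 0 were called. Their median was -0.32, but it rested on single libraries, being 0.03 when control 3 was omitted, -0.04 when PM2.5 library 1 was and -0.50 when control 1 was. Dcaf7, a scaffold of DYRK1A, had a log2 fold change of 0.30 ± 0.14, Fam53c had -0.92 ± 0.36, and the NFAT genes Nfatc1 and Nfatc4 had -0.58 ± 0.32 and -0.50 ± 0.30. Of 7 genes in the list for import and dephosphorylation of SR proteins, which also holds Safb and Safb2, 0 were called and the median was 0.08. They summed to 1330 to 1371 CPM in the controls and 1373 to 1387 CPM in PM2.5, a narrow gap without overlap. The sums of the SR protein, SR-related, related kinase and DYRK1A lists overlapped between the groups. Ppp1cc and Ppp1ca, catalytic subunits of protein phosphatase 1, had 0.21 ± 0.13 and 0.18 ± 0.12, and Safb2 and Safb had -0.27 ± 0.19 and 0.09 ± 0.17. In all, edgeR's quasi-likelihood test called 0 of the 70 tested genes of these 6 lists, with 11 at an unadjusted p below 0.05, where 20.9% of all tested genes passed. DESeq2 called 6 of the 70, 4 lower (Tra2a, Srsf6, Acin1 and U2af2) and 2 higher (Prpf8 and Snrnp200). It called 11.5% of all tested genes.

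**Figure D3:**
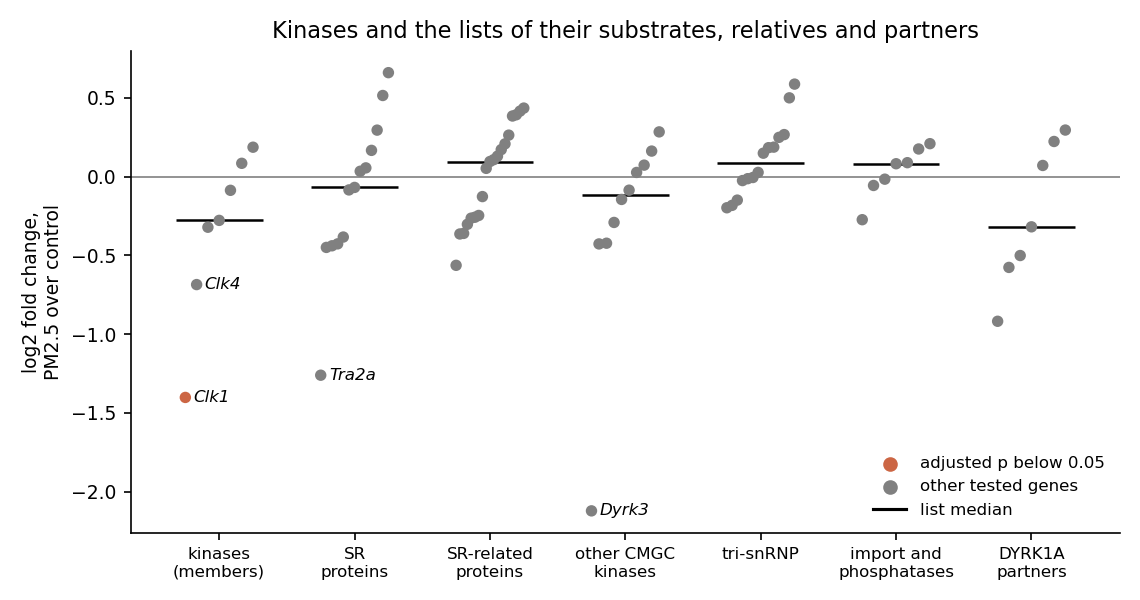
Log2 fold change, PM2.5 over control, of each tested gene (points) among the kinases and 6 lists of substrates, relatives and partners, with list medians as black bars. Clk1 at -1.40 is the gene that passed the test at 0.05; Tra2a at -1.26 and Dyrk3 at -2.12 lie far below the other genes of their lists.

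Other genes moved with the groups beside Clk1. The immediate early gene Fos had 116, 286 and 110 CPM in the controls and, after exposure, 26.8, 21.7 and 23.9 CPM. The heat shock gene Hspa1b, whose reads may be split with its near-identical copy Hspa1a, had 169, 430 and 728 CPM in the controls and, after exposure, 14.1, 17.4 and 6.67 CPM. Fos and Hspa1b were lower in every PM2.5 library. Among the controls Fos ran from 110 to 286 CPM and Hspa1b from 169 to 728 CPM, where Clk1 stayed between 489.9 and 505 CPM. Of the 10 immediate early genes tested 2 were called, Fos and Ier3, both lower, where 0.738% of all tested genes were called lower. The groups of 7 did not overlap, all lower, where 15.2% of all tested genes did not overlap and were lower. The summed level of the 10 overlapped between the groups, with 813, 4264 and 1177 CPM in the controls and, after exposure, 896, 502 and 572 CPM. Control 2 stood apart, for example with 1306 CPM of Egr1 beside 91.1 and 52.6 CPM in the other controls. Ier3 and Egr1 are named after their values were seen. Of the 10 heat shock chaperones 4 were called lower, where 0.738% of all tested genes were. The 10 summed to 4037 to 6017 CPM in the controls and 2379 to 3144 CPM in PM2.5. Their part in the Clk1 values was not tested.

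**Figure D4:**
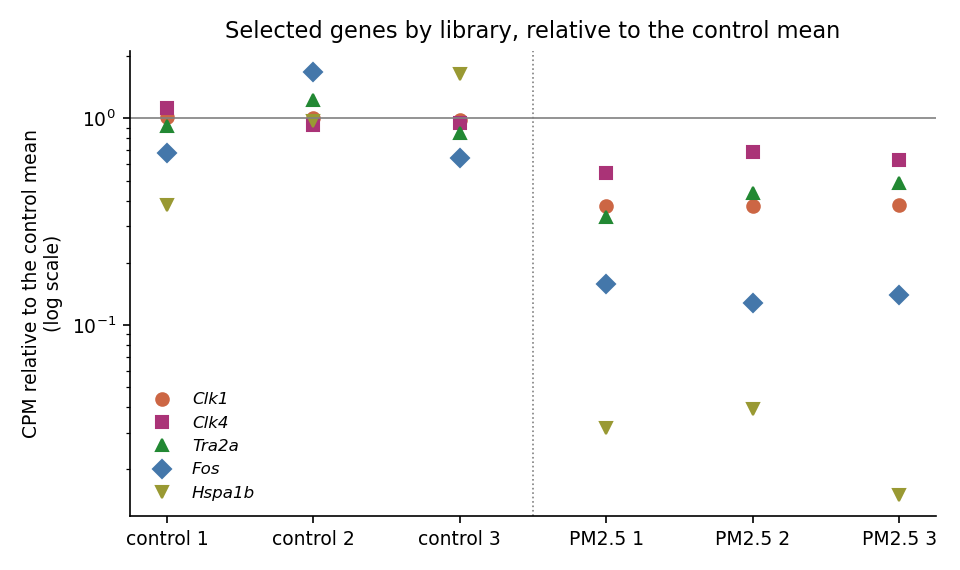
CPM of Clk1, Clk4, Tra2a, Fos and Hspa1b in each library divided by the gene's control mean (log scale); each point is 1 library. All 5 are lower in the 3 PM2.5 libraries; Fos and Hspa1b spread widely among the controls, while Clk1 lies close to 1 in all 3.

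Of 12 marker lists for cell types of the ovary and its surroundings, 3 had summed levels that did not overlap between the groups. Of single tested genes 27.2% had groups that did not overlap. Erythroid markers summed to 658 to 711 CPM in the controls and 2565 to 4034 CPM in PM2.5. Of 4 tested genes 3 were called higher, where 0.19% of all tested genes were. T and NK cell markers summed to 22.6 to 50.9 CPM in the controls and 7.08 to 9.64 CPM in PM2.5. Of 5 tested genes 1 was called lower, where 0.738% of all tested genes were. The log2 fold changes of the 5 ran from -4.14 to 0.06, with a median of -0.35. Adipocyte markers summed to 8.99 to 15.5 CPM in the controls and 17.3 to 58.4 CPM in PM2.5, with 0 of 3 called. Granulosa, theca and luteal, and oocyte markers were present in every library. No row carries the name Myh1, Ovgp1, Foxj1 or Krt19, so these markers of striated muscle, oviduct and surface epithelium are missing from their sums. The part of these cell types in the kinase values was not tested.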

How the data were processed

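Ovarian RNA of rats was sequenced in 6 libraries, 3 of controls and 3 of animals exposed to PM2.5. The submitters' processing notes list HISAT2 2.2.1, edgeR, cutadapt 1.9, DESeq2 and StringTie 2.1.6 and give no roles. Build, annotation release, strand setting and handling of multiply matching reads: not given in the sources used here. Per the file headers, each gene of the deposited table has counts and FPKM for every library. Counts as deposited by the authors are whole numbers, and the authors' FPKM is scaled per kilobase and per library. Libraries totalled 47662338 to 60749578 counts.

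Rows were taken by gene name. The members and lists were chosen with earlier results of these data known. Counts were tested with edgeR 4.0.16 in R 4.3.3 (TMM factors, quasi-likelihood test, genes averaging 0.5 FPKM or more, two-sided, Benjamini-Hochberg over all tested genes at 0.05). SEs were computed as |log2 fold change| / √F. CPM were scaled by TMM. Of each list of substrates, relatives and partners up to 4 members with the smallest p were named, and for Clk1 the 5 named genes with the most similar profile. In simulated data with 15303 genes edgeR recovered 10% of genes changed 2-fold and 72% of those changed 4-fold. Alternatives were other scalings, filters and tests (limma 3.58.1 on log2 FPKM, DESeq2 1.42.0), the replicate number as a block, and the omission of single libraries.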

Additional observations from a re-analysis of the deposited data

How the results depend on the processing

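The log2 fold change of Clk1 ran from -1.41 to -1.39 over 16 alternatives. Its call was lost with the replicate block (adjusted p 0.118) and with each library left out, where fewer samples entered the test, and was kept in the other 9. Kinases called numbered 1, 2 with DESeq2 (Clk1 and Clk4), 0 with the replicate block and 0 whichever library was omitted. The median log2 fold change of the kinases was -0.28, and -0.18 both without a filter and with edgeR's own filter, where Srpk3 also entered. Omitting single libraries gave -0.37 to -0.17. Over all genes 142 were called, against 8 if no filter was applied, 87 under filterByExpr, 1767 by DESeq2 (731 higher and 1036 lower, against 29 and 113), 1 with the replicate block and 0 to 7 when single libraries were omitted. Apart from that of Clk1 and the gain of Clk4 with DESeq2, calls of the tested kinases did not change, and their signs and those of the 4 ratios held in every alternative run. Of 496 values for 31 other named genes, 42 lost a call, 12 gained 1 and 0 turned direction. The labels do not state that replicate numbers pair samples, so no block entered the main test. Deviations of same-numbered libraries correlated at -0.271, 0.147 and -0.00785, which with 3 libraries per group cannot settle whether they are paired.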
